A study of Mus musculus with 11 samples.

Results

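Secreted Wnt antagonists are proteins that cells release to hold back Wnt signalling, and 10 genes of this kind were followed in fibroblasts of mouse back skin: Sfrp1, Sfrp2, Sfrp4, Sfrp5, Frzb, Dkk1, Dkk2, Dkk3, Wif1 and Notum. They were taken by gene symbol from a table of 47643 genes, all 10 were found, and 8 of them were expressed highly enough to be among the 11979 genes tested. Fibroblasts had been isolated by FACS from unwounded skin (NS) and from 5-day full-thickness excisional wounds (5dw) of wild-type (WT) mice and of littermates that carry the INHBA transgene (Act mice). INHBA encodes a subunit of activin, a growth factor of the TGF-β superfamily, and the Krt14 promoter drives it in keratinocytes. The 11 libraries were 3 from NS and 3 from 5dw of WT mice, and 3 from NS and 2 from 5dw of Act mice. The library of Act wounds numbered 2 had failed the authors' quality control and was not analysed here.

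The mice were F1 offspring of CD-1 Act mice and C57BL/6 mice, and females were wounded at an age of 9 to 12 weeks. NS was back skin freed of the fat below it, and 5dw was the tissue of wounds that were 5 mm wide when made. Live cells that were positive for CD140a, the product of Pdgfra, and negative for CD45, CD11b and F4/80 were sorted. Each library combined the RNA of 3 animals, which was brought to 100 ng for NS and 200 ng for 5dw, so the amount of RNA and the tissue cannot be told apart. A library is therefore a pool of animals, and no value of a single animal was measured. Expression was given as RPKM, reads scaled by gene length and by the mapped reads of the library, which allows levels to be compared between genes.

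Wnt proteins are lipid-modified ligands that bind Frizzled receptors together with the co-receptors Lrp5 and Lrp6, which stabilizes β-catenin and switches on genes such as Axin2 and Lef1. Frizzled-related proteins (Sfrp1, Sfrp2, Sfrp4, Sfrp5 and Frzb) and Wif1 bind the ligand itself, Dickkopf proteins of the Dkk1 and Dkk2 type bind the co-receptors, and Notum is an enzyme that removes the lipid from the ligand. Dkk3 is a divergent Dickkopf protein for which binding to the co-receptors is not established, and Sfrp2 has been described both as an inhibitor and as an enhancer of Wnt responses. In skin, Wnt signals are best known for hair follicle growth and for the identity of dermal fibroblasts.

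The sequences upstream of 3 members are shown because these genes had the largest changes after wounding on the log2(RPKM + 0.5) scale among members with an entry, Sfrp2 upward and Wif1 and Dkk2 downward. On the scale of limma-voom, which adds no such constant to RPKM, Frzb (log2FC -3.10 in WT mice) moved further than Dkk2 (-2.78) and Sfrp2 (2.75). They come from RefSeq on GRCm38.p6, are written 5′ to 3′ on the strand of the gene and stop before the first base of the GENCODE gene model. Capitals mark matches to TATAAA, the TATA box, on either strand. Sfrp2 is chr3:83766071-83766320 (plus strand), Dkk2 is chr3:132085042-132085291 (plus strand) and Wif1 is chr10:121033754-121033959 (plus strand).
Sfrp2: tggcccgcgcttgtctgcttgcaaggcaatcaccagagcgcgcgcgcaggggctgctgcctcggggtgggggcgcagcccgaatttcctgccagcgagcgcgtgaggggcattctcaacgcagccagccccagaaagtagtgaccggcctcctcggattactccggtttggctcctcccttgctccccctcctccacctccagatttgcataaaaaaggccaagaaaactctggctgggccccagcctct
Dkk2: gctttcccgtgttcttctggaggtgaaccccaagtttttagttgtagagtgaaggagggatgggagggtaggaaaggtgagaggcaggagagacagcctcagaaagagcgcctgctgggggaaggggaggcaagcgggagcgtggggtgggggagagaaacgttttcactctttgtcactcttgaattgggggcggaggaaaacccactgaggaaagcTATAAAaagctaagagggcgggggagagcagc
Wif1: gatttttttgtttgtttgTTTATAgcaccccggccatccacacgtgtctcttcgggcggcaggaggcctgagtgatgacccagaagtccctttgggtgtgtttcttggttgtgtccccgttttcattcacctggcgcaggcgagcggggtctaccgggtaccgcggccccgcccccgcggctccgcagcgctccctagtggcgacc

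RefSeq promoter windows of 300 bases, 250 before and 50 after the start, were present for 6 of the 10 members, namely Sfrp2, Sfrp5, Frzb, Dkk1, Dkk2 and Wif1. They were searched on both strands for CTTTGA, the core of TCF/LEF sites, for TGANTCA, the AP-1 site, and for TATAAA, and no pair of these motifs overlapped in a window. Among 32851 windows of the same length, 16.0% held CTTTGA, 7.81% held TGANTCA and 13.6% held TATAAA. The Dkk2 window held TATAAA at position -32 from the start, and that of Wif1 held it on the minus strand at -232. The Dkk1 window held TATAAA at -54 and CTTTGA at -174 on the minus strand and at -117 on the plus strand, and the Frzb window held CTTTGA at -95 on the minus strand. Of the 250 bases before the RefSeq start, 169 of Dkk1 and 229 of Frzb lie inside the GENCODE gene model. The hits at -54, -117 and -95 are therefore inside it, and that at -174 reaches its edge. The windows of Sfrp2 and Sfrp5 held none of the 3 motifs, which says only that these letters were not in them. GC content of the shown sequences was 63.6% for Sfrp2, 55.6% for Dkk2 and 61.7% for Wif1.

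The mapped reads behind each library, recovered from the RPKM values, were 18649307 to 39702121, and the 3 WT 5dw libraries were the deepest. Of the variance between libraries, 76.1% lay on the axis that separated 5dw from NS. WT NS replicate 1 and Act NS replicate 1 stood apart from the other 4 NS libraries on the next axis (22.4 and 35.7 against -18.0 to -7.42), so values that moved clearly without them are given both ways. Pdgfra was present in every library and lower in 5dw (29.6 to 37.3 RPKM) than in NS (49.8 to 65.3), and the leukocyte genes Ptprc and Adgre1, which encode the CD45 and F4/80 of the sort, were at 0.0498 and 0.119 RPKM or less. Transcripts of other immune genes were present, and the sum of 9 immune markers was 16.6 to 48.6 RPKM in NS and 67.9 to 121 in 5dw, with none of the 9 at 0 throughout a group. Most of the sum in 5dw was Cd3e, a T cell gene, at 2.94 to 33.9 RPKM in NS and 55.5 to 105 in 5dw. In WT mice 2 of the 9 were higher and 1 lower in 5dw without overlap, and in Act mice 3 and 3, where 11.4% of all tested genes were higher and 55% lower in WT mice, and 14.4% and 49.8% in Act mice. The part of immune cells in the members' changes was not tested. Summed over 14 keratinocyte markers, NS libraries held 1294 to 4808 RPKM and 5dw libraries 130 to 1109, with none of the 14 at 0 throughout a group, so transcripts of keratinocytes were present in the sorted samples, more so in NS. Inhba, the mouse counterpart of the transgene, was at 3.40 to 6.93 RPKM in WT NS and 36.3 to 91.1 in Act NS (log2FC 3.30, limma adjusted p = 0.0128), and wounds of WT mice held 15.8 to 24.0 and those of Act mice 26.2 and 50.2 (log2FC 0.86, limma adjusted p = 1).

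Frizzled-related proteins were the most abundant antagonists in NS and 5dw, but a different one led in each. Sfrp4 (chr13:19623104-19632994) led in unwounded skin with 208 ± 11.1 RPKM (SD, n = 3) in WT and 158 ± 39.1 (n = 3) in Act mice, and each of the 6 NS libraries held more of it than of any other member. In wounds Sfrp2 (chr3:83766321-83774316) led with 287 ± 29.2 RPKM (n = 3) in WT and 312 ± 36.3 (n = 2) in Act mice. Ranked among all genes by mean RPKM, Sfrp2 went from place 974 in NS to 134 in 5dw, and Sfrp4 from 228 to 242.

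Below Sfrp4, the order in WT NS was Sfrp2, Sfrp1, Wif1, Dkk3 and Dkk2, and each of these overlapped with its neighbour in the order. In Act NS the order was Sfrp1, Sfrp2, Dkk3, Dkk2 and Wif1, again with overlap at every step. Notum stood below them in both genotypes, at 4.95 ± 0.769 and 6.11 ± 1.88 RPKM, and Frzb (1.01 ± 0.546 and 1.55 ± 0.412), Sfrp5 (0.760 ± 0.366 and 0.513 ± 0.142) and Dkk1 (0.168 ± 0.0813 and 0.0807 ± 0.0803) came last. Frzb and Sfrp5 overlapped in WT NS and not in Act NS.

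The order was clearer in wounds. In WT 5dw all libraries separated Sfrp2, Sfrp4, Dkk3, Sfrp1, Dkk2, Wif1 and Notum in that order, and only Notum, Sfrp5 and Frzb overlapped with a neighbour. In Act 5dw the first 4 places were the same, and Wif1 stood above Dkk2.

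**Figure D1:**
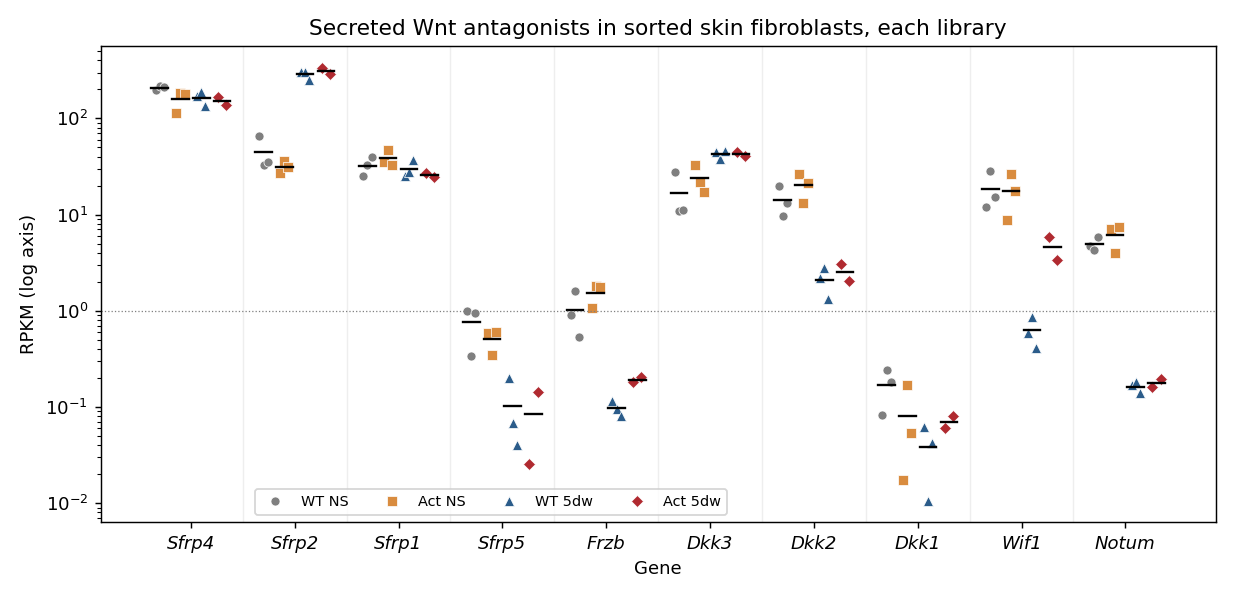
RPKM of each of the 10 secreted Wnt antagonists on a log axis, 1 point per library, by group (WT NS, Act NS, WT 5dw, Act 5dw), with a bar at each group mean and a dotted line at 1 RPKM. Sfrp2 and Dkk3 sit higher in all 5 5dw libraries than in all 6 NS libraries, Sfrp5, Frzb, Dkk2, Wif1 and Notum sit lower, and Wif1 is higher in the 2 Act 5dw libraries than in the 3 WT 5dw libraries.

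Summed over the 10 members, expression was 320 ± 35.7 RPKM in NS (n = 6, 253 to 353) and 533 ± 47.2 RPKM in 5dw (n = 5, 471 to 586). That was 0.120% of all RPKM of a library in NS and 0.214% in 5dw. The make-up of this sum shifted from Sfrp4 to Sfrp2. Sfrp4 held 56.8% of it in NS (44.8 to 64.3) and 29.9% in 5dw (28.1 to 33.7), while Sfrp2 held 11.8% in NS (9.77 to 18.7) and 55.7% in 5dw (53.8 to 57.7). Within single libraries the ratio of Sfrp2 to Sfrp4 was 0.152 to 0.337 in NS and 1.60 to 2.05 in 5dw, and that of Dkk3 to Dkk2 was 0.805 to 1.64 in NS and 13.7 to 34.6 in 5dw. These ratios do not change when a library is multiplied by a scaling factor.

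Wounding was compared within each genotype with limma on log2(RPKM + 0.5), and a gene was called at an adjusted p under 0.05. In WT mice 6 of the 8 tested members changed, 2 higher (Sfrp2 and Dkk3) and 4 lower (Wif1, Notum, Dkk2 and Frzb), where 58.3% of all tested genes were called, 9.45% higher and 48.8% lower. In Act mice 5 changed, Sfrp2 higher and the same 4 lower, where 45.6% of all genes were called, 9.04% higher and 36.5% lower. The share of members that were lower is thus close to that of all genes in WT mice and above it in Act mice, a difference that was not tested. A tested gene had to reach 1 RPKM in at least 2 libraries, and Notum and Frzb did so only in NS. Their place among the tested members therefore rests on the tissue in which they were higher. Over all tested genes the median log2FC was -0.40 in WT and -0.31 in Act mice, and the members' values are to be read against it. A scaling that brings this median close to 0 turned 16.2% higher among the genes called in WT mice into 50.3%, and 19.8% into 48.9% in Act mice, while it left the direction of the 6 members called in WT mice as it was.

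Sfrp2, a Frizzled-related protein, rose the most of the members. WT NS libraries held 66.0, 33.0 and 35.1 RPKM and Act NS libraries 27.4, 36.4 and 30.9. WT 5dw libraries held 307, 302 and 254 RPKM and Act 5dw libraries 338 and 286. Every 5dw library was above every NS library, the highest NS value being that of WT NS replicate 1. The log2FC was 2.74 in WT mice (standard error 0.24, limma adjusted p = 1.07e-05) and 3.29 in Act mice (standard error 0.27, limma adjusted p = 1.16e-05), and without both NS libraries numbered 1 it was 3.05 and 3.19. The gene overlaps an antisense gene, Gm26771, which was at 0.489 RPKM or less in every library, and 13.7% of the 31-base sequences of its exons also occur in other genes. Sfrp2 is among the genes that the study itself named from these libraries, so its value is no independent evidence.

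Dkk3 (chr7:112116017-112159057) was the other member that was higher in wounds. Levels were 28.0, 10.8 and 11.05 RPKM in the WT and 32.9, 21.7 and 17.0 in the Act libraries of NS. In 5dw they were 44.3, 38.1 and 45.7 RPKM in WT and 44.9 and 40.8 in Act mice. All 5dw libraries were above all NS libraries, and the 2 highest NS values were those of the libraries numbered 1, which stood apart. The log2FC was 1.48 in WT mice (standard error 0.33, limma adjusted p = 0.00332). In Act mice it was 0.88 (standard error 0.37), and limma's adjusted p of 0.0725 missed the threshold. Without both NS libraries numbered 1 it was 1.91 in WT mice (limma adjusted p = 1.77e-05) and 1.14 in Act mice (limma adjusted p = 0.000419), so Dkk3 was then called in both genotypes. It was also called in Act mice with median-ratio scaling (limma adjusted p = 0.0347), with a replicate block (0.0465) and with only the groups compared (0.0444). Leaving out only WT NS replicate 1 or only Act NS replicate 1 gave limma adjusted p-values of 0.0109 and 0.0291 in Act mice. The other 15 of 21 alternatives did not call Dkk3 in Act mice, among them limma-voom (adjusted p = 0.0727).

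Wif1 (chr10:121033960-121100650), which binds Wnt ligands outside the cell, had the lowest log2FC of the members in WT mice on the log2(RPKM + 0.5) scale, while limma-voom gave -4.84 for it and -4.90 for Notum. WT NS libraries held 12.0, 28.2 and 15.4 RPKM and Act NS libraries 8.89, 26.4 and 17.6. After wounding, WT libraries held 0.592, 0.872 and 0.414 RPKM, which is 57, 82 and 39 recovered reads, and Act libraries 5.88 and 3.38, which is 293 and 210 reads. All 5dw libraries were below all NS libraries, and both Act 5dw libraries were above the 3 of WT 5dw. The log2FC was -4.01 in WT mice (standard error 0.39, limma adjusted p = 2.24e-05) and -1.74 in Act mice (standard error 0.44, limma adjusted p = 0.00806), and without both NS libraries numbered 1 it was -4.26 and -2.15. The call in Act mice was lost without Act 5dw replicate 3 (log2FC -1.38, limma adjusted p = 0.0879).

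Notum (chr11:120653788-120661175), the enzyme that inactivates Wnt ligands, is itself induced by β-catenin in many tissues. It was at 4.76, 4.30 and 5.80 RPKM in WT NS and 7.03, 3.95 and 7.36 in Act NS. In 5dw it was at 0.167, 0.182 and 0.139 RPKM in WT mice and 0.162 and 0.194 in Act mice, which is 8 to 17 recovered reads in each library. The groups lay far apart, with no overlap between NS and 5dw. The log2FC was -3.03 in WT mice (standard error 0.20, limma adjusted p = 1.94e-06) and -3.24 in Act mice (standard error 0.23, limma adjusted p = 4.64e-06). Adding 0.5 to such low values shrinks the change, and limma-voom on the recovered reads gave -4.90 and -4.97. In the annotation, it shares 33.0% of its 31-base sequences with other genes and overlaps the antisense genes Notumos and Myadml2os, each at 0.120 RPKM or less. The sources used here do not state how the counting treated strand, so reads of these antisense genes cannot be told apart from those of the members they overlap.

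Dkk2 (chr3:132085292-132180304), which binds the co-receptors, was at 19.7, 9.75 and 13.3 RPKM in WT NS and 26.5, 13.2 and 21.1 in Act NS. It was at 2.18, 2.77 and 1.32 RPKM in wounds of WT mice and 3.05 and 2.05 in those of Act mice. The highest 5dw library was below the lowest NS library, and the highest value of each NS group was that of the library numbered 1. The log2FC was -2.49 in WT mice (standard error 0.31, limma adjusted p = 0.000105) and -2.73 in Act mice (standard error 0.35, limma adjusted p = 0.000179). Without both NS libraries numbered 1 it was -2.24 and -2.52.

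Frzb (chr2:80411970-80447625), a Frizzled-related protein known from cartilage, was weakly expressed. The NS libraries held 0.906, 1.61 and 0.530 RPKM (WT) and 1.07, 1.79 and 1.78 RPKM (Act). The 5dw libraries held 0.117, 0.0957 and 0.0796 RPKM (WT) and 0.181 and 0.205 RPKM (Act). NS and 5dw did not overlap, although 5dw values rest on 10 to 17 reads a library. Frzb was tested only because 4 NS libraries reached 1 RPKM, which no 5dw library did. The log2FC was -1.28 in WT mice (standard error 0.25, limma adjusted p = 0.00144) and -1.54 in Act mice (standard error 0.28, limma adjusted p = 0.00138), and limma-voom gave -3.10 and -2.92.

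Sfrp1 (chr8:23411502-23449632) and Sfrp4, both Frizzled-related, were not called in either genotype. Sfrp1 was at 25.0, 32.5 and 39.5 RPKM in WT NS and 35.4, 47.4 and 32.6 in Act NS. After wounding it was at 25.2, 28.0 and 36.8 RPKM in WT mice and 27.2 and 24.5 in Act mice. Sfrp4 was at 196, 217 and 211 RPKM in WT NS and 113, 182 and 179.5 in Act NS. After wounding it was at 171, 189 and 133 RPKM in WT mice and 166 and 139 in Act mice. Across both genotypes, the NS and 5dw libraries of both genes overlapped. Within genotypes, Sfrp1 was lower in both Act 5dw libraries than in the 3 Act NS libraries, and Sfrp4 was lower in the 3 WT 5dw libraries than in the 3 WT NS libraries. The log2FC of Sfrp1 was -0.10 in WT mice (95% interval -0.55 to 0.35) and -0.55 in Act mice (-1.05 to -0.05, limma adjusted p = 0.0704), where it was called without WT NS replicate 1 (limma adjusted p = 0.0497). That of Sfrp4 was -0.35 in WT mice (95% interval -0.79 to 0.09) and -0.02 in Act mice (-0.52 to 0.47). Bringing the median of all genes to 0 by median-ratio scaling turned 3 of these 4 values positive, with 0.35 for Sfrp1 in WT mice and 0.10 and 0.33 for Sfrp4 in WT and Act mice.

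Sfrp5 (chr19:42197971-42202252) and Dkk1 (chr19:30545863-30549665) were too low to be tested. Sfrp5 was at 0.339 to 1.00 RPKM in NS and 0.0256 to 0.199 in 5dw, with no overlap, on 1 to 53 reads a library. Dkk1 was at 0.0172 to 0.243 RPKM in NS and 0.0106 to 0.0804 in 5dw, on 1 to 13 reads. Every WT 5dw library was below every WT NS library for Dkk1, and the Act libraries of NS and 5dw overlapped. When the filter on low genes was dropped, Sfrp5 had a log2FC of -1.03 in WT mice (limma adjusted p = 0.00772) and -0.79 in Act mice (limma adjusted p = 0.0505). Dkk1 then had a log2FC of -0.31 in WT mice (limma adjusted p = 0.0588) and -0.017 in Act mice (limma adjusted p = 1).

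**Figure D2:**
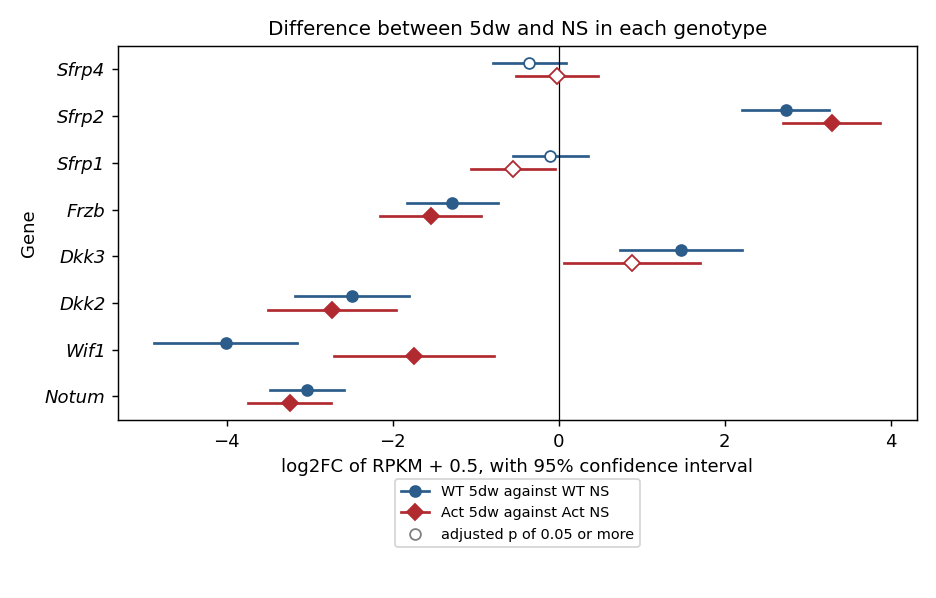
log2FC of 5dw against NS for the 8 tested secreted Wnt antagonists, with 95% intervals from limma, for WT and Act mice. Sfrp2 (2.74 and 3.29) lies to the right of 0, and Wif1, Notum, Dkk2 and Frzb lie to the left in both genotypes, with Wif1 at -4.01 in WT and -1.74 in Act mice.

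Of the 8 tested members, 2 were higher in every WT 5dw library than in every WT NS library (11.4% of all tested genes) and 5 were lower in every one (55% of all tested genes), Sfrp4 being the fifth beside the 4 called members. In Act mice 2 were higher without overlap (14.4% of all genes) and 5 lower (49.8% of all genes), with Sfrp1 as the fifth. In sorted bulk samples, fewer fibroblasts of a subtype and less RNA per cell cannot be told apart.

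Most markers of the dermal papilla, the fibroblast group at the base of hair follicles, moved with the members that were lower in wounds. Of 9 such markers, 8 were lower in every WT 5dw library than in every WT NS library and 1, Crabp1, was higher, where 55% of all tested genes were lower and 11.4% higher without overlap. In Act mice 6 were lower and 3 overlapped (49.8% of all tested genes were lower). Summed without Crabp1, which was set aside after its values were seen, the markers held 23.3 to 49.7 RPKM in WT NS, 24.1 to 38.8 in Act NS, 2.21 to 2.55 after wounding in WT mice, and 4.43 and 7.35 after wounding in Act mice. With Crabp1 the sum of all 9 was 48.2 to 88.5 RPKM in NS and 52.7 to 122 in 5dw. Sox2, a defining marker, was at 0 in all 5dw libraries and at 0.183 RPKM or less in NS. Markers of fascia and adventitia were also lower in sum (590 to 944 RPKM in NS and 300 to 559 in 5dw), with 4 of 7 lower without overlap in each genotype, which is close to the share of all tested genes, and 10 of 14 keratinocyte markers were lower without overlap in WT mice and all 14 in Act mice. The part of these markers in the members' changes was not tested.

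Act and WT mice were compared within each tissue to ask whether keratinocyte-derived activin alters the antagonists. In NS limma called none of the 8 tested members (0.0167% of all genes were called, 2 genes), no member had an unadjusted p under 0.05, and limma-voom called none. In 5dw limma called none either (0.0334% of all genes, 4 genes), with 1 member, Wif1, at an unadjusted p under 0.05, and limma-voom called none, but with a replicate block Wif1 was called. With 3 or 2 libraries a group, intervals were wide. In NS the log2FC of Act against WT was -0.43 for Sfrp2 (95% interval -0.96 to 0.09), -0.42 for Sfrp4 (-0.86 to 0.02), 0.60 for Dkk3 (-0.13 to 1.33), 0.50 for Dkk2 (-0.19 to 1.18), 0.48 for Frzb (-0.07 to 1.02), 0.25 for Sfrp1 (-0.20 to 0.70), 0.24 for Notum (-0.20 to 0.69) and -0.11 for Wif1 (-0.97 to 0.75). The 3 Act NS libraries all held less Sfrp4 than the 3 WT NS libraries, as for 7.98% of all tested genes. Paired by replicate number, Act NS was above WT NS in each pair for Dkk3, Dkk2 and Frzb, and below in each for Sfrp4. Pairs went both ways for Sfrp2, Sfrp1, Notum and Wif1, and the fit with a replicate block called no member in NS. Without both NS libraries numbered 1, the values in NS were -0.023 for Sfrp2, -0.24 for Sfrp4, 0.78 for Dkk3, 0.53 for Dkk2, 0.63 for Frzb, 0.13 for Sfrp1, 0.10 for Notum and 0.049 for Wif1, and none was called.

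In wounds, Sfrp2 differed by 0.12 (95% interval -0.47 to 0.70), Dkk3 by 0.01 (-0.81 to 0.83), Notum by 0.03 (-0.46 to 0.53), Sfrp4 by -0.09 (-0.59 to 0.40), Sfrp1 by -0.20 (-0.70 to 0.31), Dkk2 by 0.26 (-0.51 to 1.03) and Frzb by 0.21 (-0.40 to 0.83) on the log2 scale. Wif1 had the largest difference of the 8, with a log2FC of 2.16 (standard error 0.44, 95% interval 1.20 to 3.13). It was gene 18 of 11979 in the order of limma's test. The limma adjusted p = 0.299 missed the threshold. With the replicate number as a block the log2FC was 2.44 and limma's adjusted p of 0.04995 was just under it, in a comparison where the groups share only 2 numbers. Over all alternatives the adjusted p ranged from 0.04995 to 1. Both Act 5dw libraries were above the 3 WT 5dw libraries for Wif1 and for Frzb, as were 7.87% of all tested genes.

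The difference between the wounding changes of Act and WT mice was tested as an interaction. No member was called and no gene at all (0% of 11979), with 1 member and 400 genes at an unadjusted p under 0.05 and 0 genes called by limma-voom. Wif1 had the largest interaction, 2.27 (standard error 0.59, 95% interval 0.98 to 3.56), with an adjusted p of 0.774 in limma and 0.153 to 1.00 over the alternatives. The interaction was 0.55 for Sfrp2 (95% interval -0.23 to 1.34) and -0.59 for Dkk3 (-1.69 to 0.50), and -0.45 to 0.33 for the other 5. Without WT NS replicate 1 that of Sfrp2 was 0.24. Without both NS libraries numbered 1 the interaction was 0.14 for Sfrp2, -0.78 for Dkk3 and 2.11 for Wif1, and none was called.

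**Figure D3:**
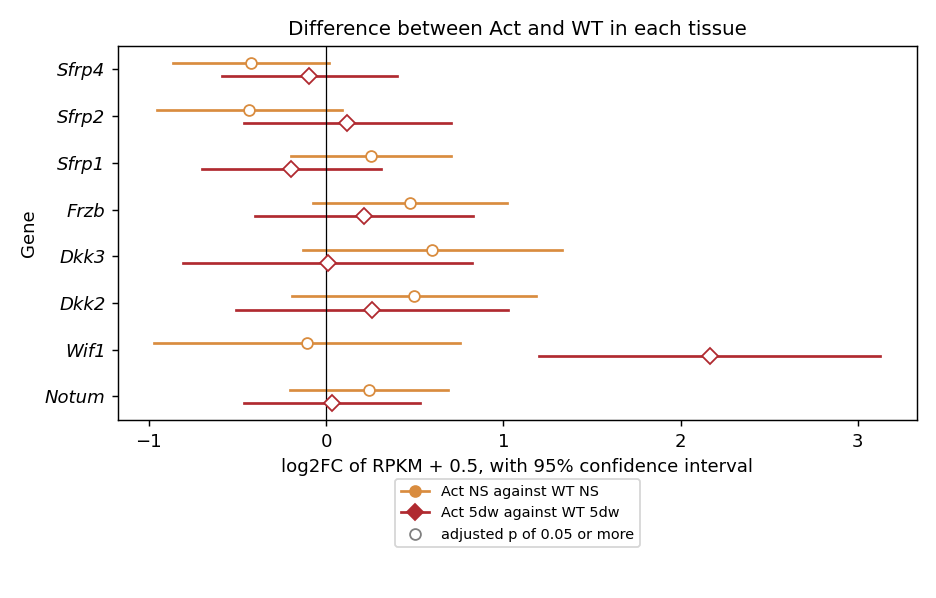
log2FC of Act against WT for the 8 tested secreted Wnt antagonists in NS and in 5dw, with 95% intervals from limma. The interval of Wif1 in 5dw (1.20 to 3.13) is the only one in 5dw that does not reach 0, and its limma adjusted p was 0.299 (0.04995 with a replicate block).

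Some markers of the dermal papilla moved with Wif1 here too, while the sum of all 9 went the other way. Of the 9, 6 were higher in both Act 5dw libraries than in the 3 WT 5dw libraries, among them Corin, at 1.07 and 1.80 RPKM against 0.0191 to 0.0373, and Lepr, at 0.537 and 1.08 against 0.245 to 0.350. Crabp1 was lower (45.3 and 56.9 against 69.6 to 119 RPKM), Alx4 overlapped, and Sox2 was at 0 in all 5 libraries. Of all tested genes, 7.87% were higher in Act 5dw without overlap. Summed over all 9, WT 5dw held 71.9 to 122 RPKM and Act 5dw 52.7 and 61.3, and the sum of the 14 keratinocyte markers overlapped (130 to 1109 and 280 to 337 RPKM). In NS, where Wif1 was at 8.89 to 28.2 RPKM, all 9 overlapped between Act and WT libraries. The part of dermal papilla cells in the Wif1 values was not tested.

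The genes whose pattern over the 11 libraries was most like that of a member were found by the root-mean-square difference of log2(RPKM + 0.5), after each gene was centred on its own mean, among 11978 genes. For Sfrp2 they were Wisp1 (0.28), Capn6 (0.31) and Rdh8 (0.33), and Wisp1 itself was at 1.25 to 2.68 RPKM in NS and rose to between 16.1 and 23.2 in 5dw. For Notum they were Olfm2 (0.19), Cdh13 (0.23) and Ecm2 (0.24), and for Dkk2 they were Pappa2 (0.27), Cybrd1 (0.27) and Flt3l (0.29). Wif1 had no gene as near, the closest being Gldn (0.52), Scube3 (0.62) and Enpp2 (0.63), all of them lower in 5dw. Dkk3 was most like Casp6 (0.28), Lhfpl2 (0.29) and Ctxn1 (0.29), and Frzb most like Icam1 (0.15), Ankrd33b (0.18) and Ndp (0.22). The added 0.5 shrinks the changes of weakly expressed genes, so a likeness to a strongly expressed gene holds on this scale only, as for Frzb and Icam1, whose mean went from 321 RPKM in NS to 110 in 5dw while that of Frzb went from 1.28 to 0.136. Sfrp4 and Sfrp1, which were not called after wounding, were most like Vamp3 (0.11) and Gm37660 (0.18).

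Other genes of the pathway were read from fixed lists to place the antagonists. Of 9 targets and feedback genes of β-catenin, 8 were tested, and 7 were lower and 1 higher in WT 5dw, with the same counts in Act 5dw and a median log2FC of -1.90 in WT mice. Among the lower genes, Lef1, Tcf7 and Tnfrsf19 reached 1 RPKM, the level of the filter, only in NS libraries. Of all tested genes, 48.8% were called lower and 9.45% higher after wounding in WT mice and 36.5% lower and 9.04% higher in Act mice, and the counts of each list are to be read against these shares. The lower genes included Tnfrsf19 (log2FC -2.46, 3.04 to 5.11 RPKM in NS and 0.245 to 0.469 in 5dw), Nkd1 (-2.41) and Nkd2 (-2.09), intracellular inhibitors, Ccnd1 (-2.12), which drives the cell cycle, and Tcf7 (-1.71), a transcription factor of the pathway. The 1 higher gene was Wisp1, a secreted matricellular protein (log2FC 3.04), which the study also named from these libraries.

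Among other extracellular inhibitors, 7 of 13 were tested, and 5 were lower and 1 higher in WT 5dw, and 3 lower and 1 higher in Act 5dw. Apcdd1, a membrane-bound inhibitor, went from 52.0 to 115 RPKM in NS to 8.92 to 11.6 in 5dw (log2FC -3.07), which is the same direction as Wif1, Notum and Dkk2. In WT mice Sostdc1 (-2.81) and Dkkl1 (-2.71) were lower too, as was Trabd2b (-1.48), a protease that cuts Wnt ligands, and Draxin was higher (2.11). Sostdc1 was not called in Act mice (-1.30, limma adjusted p = 0.234), where its NS and 5dw libraries overlapped.

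Ligands and receptors moved in both directions. Of 19 Wnt ligand genes, 12 were tested, and 2 were higher and 7 lower in WT 5dw (median log2FC -0.96), and 3 higher and 7 lower in Act 5dw, where 48.8% of all tested genes were lower in WT and 36.5% in Act mice. Wnt9a (2.04) and Wnt2b (1.62) were higher, and Wnt3 (-2.28), Wnt11 (-2.07), Wnt10a (-1.39) and Wnt10b (-1.36) were lower in WT mice, and Wnt10b was not called in Act mice (-0.72, limma adjusted p = 0.0723). Some of the ligands that were lower, such as Wnt3 and Wnt10a, are also made by keratinocytes, whose markers were lower in 5dw, and the part of these cells was not tested. Of 15 receptor genes, 13 were tested, and 1 was higher (Fzd5, 1.07) and 5 lower in WT 5dw, among them Fzd4 (-1.77), Fzd10 (-1.75) and Fzd7 (-1.15), and 1 was higher and 6 lower in Act 5dw. The receptors that were lower in WT 5dw are a smaller share of the list than the 48.8% of all tested genes. Those lower in Act 5dw (6 of 13) are a larger share than the 36.5% of all tested genes. The counts are no result about receptors. In the R-spondin axis, whose ligands enhance Wnt signals, 5 of 7 tested genes of 9 were lower in WT 5dw and 4 in Act 5dw, led by Rspo1, at 14.3 to 21.1 RPKM in NS and 0.260 to 0.854 in 5dw (-4.42). Of the genes for lipidation and secretion of ligands, Porcn was higher in WT 5dw (0.50) and Wls in Act 5dw (0.51). None of these lists held a gene called between Act and WT mice or in the interaction by limma. Over the 35 pathway genes called in WT 5dw, standard errors were 0.10 to 0.76 and limma adjusted p-values 1.84e-07 to 0.0443. The lists were chosen with results of these data known, and the values are a description of them.

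**Figure D4:**
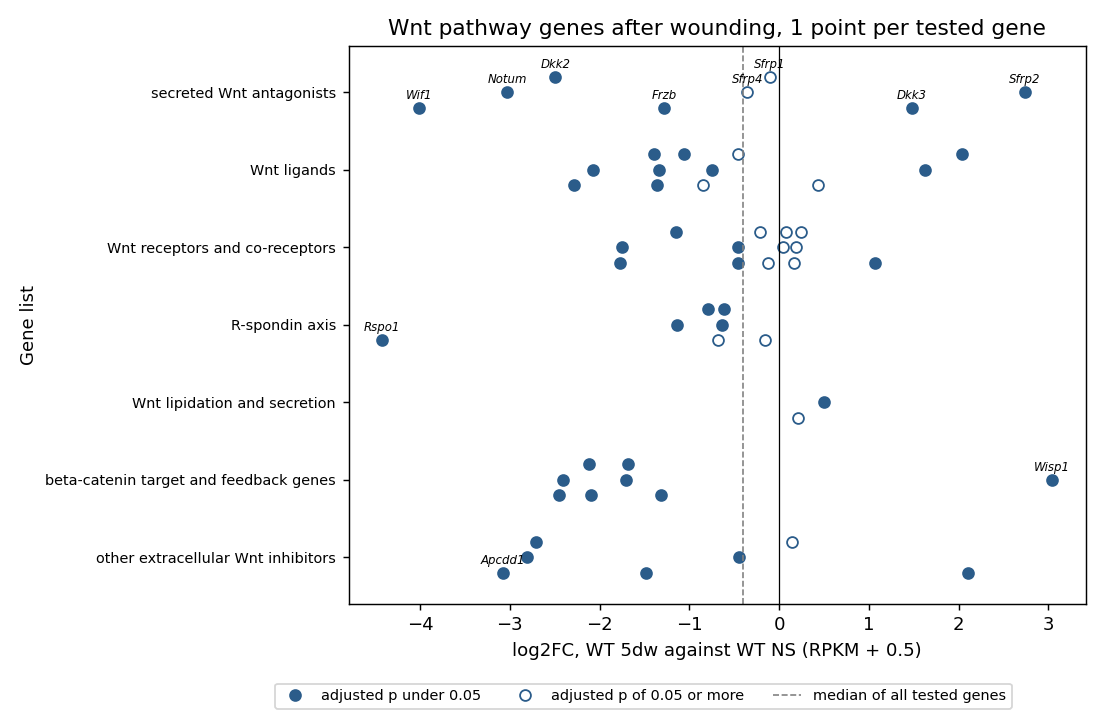
log2FC of WT 5dw against WT NS for each tested gene of 7 lists of the Wnt pathway, 1 point per gene, filled where limma's adjusted p was under 0.05, with a dashed line at the median of all tested genes (-0.40). Targets and feedback genes of β-catenin lie at -2.46 to -1.31, apart from Wisp1 at 3.04, and the antagonists run from Wif1 at -4.01 to Sfrp2 at 2.74.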

How the data were processed

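RNA of sorted fibroblasts was sequenced as poly-A RNA with single 100 bp reads. With CLC Genomics Workbench 12 the authors mapped them to GRCm38 and quantified genes, and the deposited RPKM values cover 47643 gene symbols in 11 libraries. The sources used here do not give the annotation or the strand setting of the counting. The authors tested counts with the edgeR exact test, which was not run here since RPKM values are no counts.

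Mapped totals were recovered as the number that makes RPKM times the GENCODE M21 exon length whole. Within 0.03, 81.6 to 83.1% of the genes with 1 to 30 reads came out whole in each library. For the members, reads were whole within 0.05 for 8 of 10, and not for Sfrp4 and Dkk3. Pooled over genes, replicates of a group differed by more than counting error (chi-square per degree of freedom 32.7 to 95.1). For these genes as a whole, the number of libraries limits precision more than depth does. The pooled value does not speak for members with few reads, such as Notum (8 to 17) and Frzb (10 to 17) in 5dw libraries.

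Genes with at least 1 RPKM in at least 2 libraries were tested (11979). log2(RPKM + 0.5) was fitted with limma 3.58.1 in R 4.3.3 with 1 mean per group over all 11 libraries (7 residual degrees of freedom, median prior 3.89), with Benjamini-Hochberg adjustment over all tested genes within a comparison. A fold change on this scale understates that of low genes. p-values measure the spread between pooled libraries. The labels do not say what a replicate number marks. In their deviations from group means, libraries of the same number correlated at 0.33 to 0.55 between WT NS and Act NS and at 0.11 to 0.19 between WT NS and WT 5dw, so the numbers were taken to pair these libraries. Between Act NS and Act 5dw the correlations were 0.019 and 0.14, and between the 5dw groups -0.078 and 0.19, which did not establish a pairing. Over all groups 12 of 15 pairs with the same number and 5 of 30 with different numbers were over 0.1 (medians 0.19 and -0.14). Deviations from a group mean sum to 0, so positive values for the same number bring negative ones for different numbers. The contrast of the medians is therefore no independent evidence of a pairing. The fit without the block is the one reported. The fit and the recovery were tested on simulated data. Alternatives were other pseudocounts, filters and scalings, limma-voom, a replicate block, a fit of only the groups compared, and each library left out. Leaving out both NS libraries numbered 1 was chosen after seeing the data.

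The members and lists were chosen with earlier results of these data known. All members were named, with up to 3 genes most like each tested member, at most 6 called genes of each pathway list in order of their change in WT mice, and Pdgfra and Inhba as checks. Corin, Lepr, Crabp1, Alx4, Sox2, Ptprc, Adgre1 and Cd3e come from the marker lists, chosen after their values were seen. Sequences were read from RefSeq promoter tables of GRCm38.p6.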

Additional observations from a re-analysis of the deposited data

How the results depend on the processing

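Members were recomputed under 21 alternative settings. Of 827 values for the 8 tested members, 791 kept their direction and their side of the threshold, 26 changed sign, 9 passed the threshold anew and 1 lost it. The number of members called ranged from 5 to 7 for wounding in WT mice and from 4 to 7 in Act mice. Sfrp2, Dkk2, Notum and Frzb were called in the same direction after wounding wherever they were tested. Precision is limited by 2 or 3 libraries a group.

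Median-ratio scaling and quantile normalization turned Sfrp1 after wounding in WT mice (0.35 and 0.10), Sfrp4 after wounding in Act mice (0.33 and 0.12) and Wif1 between genotypes in NS (0.029 and 0.020) positive. Median-ratio scaling did so for Sfrp4 after wounding in WT mice (0.10), quantile normalization for Sfrp4 between genotypes in 5dw (0.022), and limma-voom for the interaction of Frzb (0.19). Leaving out both NS libraries numbered 1 turned Wif1 between genotypes in NS to 0.049. None of these values was called.

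Leaving out 1 library at a time, values that changed sign ranged from -0.27 to 0.054 (Sfrp1, wounding in WT), -0.25 to 0.10 (Sfrp4, wounding in Act), -0.24 to 0.032 (Sfrp4, genotypes in 5dw), -0.072 to 0.077 (Dkk3, genotypes in 5dw), -0.0019 to 0.068 (Notum, genotypes in 5dw), -0.45 to 0.30 (Wif1, genotypes in NS) and -0.51 to 0.00075 (Dkk2, interaction). Sfrp1 after wounding in Act mice was called without WT NS replicate 1 (limma adjusted p = 0.0497) and without both NS libraries numbered 1 (-0.60, 0.0484).

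A replicate block changed no call of a member for wounding in WT mice (6 called) and between genotypes in NS (0 called), the comparisons in which the replicate numbers paired the libraries. In the others, with 2 shared numbers each, 1 member was called between genotypes in 5dw, Wif1 (2.44, limma adjusted p = 0.04995), Dkk3 was called after wounding in Act mice (0.77, adjusted p = 0.0465), Sfrp4 after wounding in Act mice was at 0.062, and Dkk3 and Notum between genotypes in 5dw were at -0.11 and -0.077.

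Some counts of genes called over the whole table moved by more than 1.5 times. A filter of 5 RPKM, under which 6596 genes were tested, left 3771 for wounding in WT, 3104 in Act mice and 1 between genotypes in NS. No filter, with 26465 genes tested, gave 18 between genotypes in 5dw, 9 in NS and 10 in the interaction. Counts under these filter settings cannot be set directly against those among 11979 genes, since the number of tested genes differs. Median-ratio scaling, quantile normalization and limma-voom each gave 2 between genotypes in 5dw, limma-voom 1 in NS and only the groups compared 0 in NS. Without both NS libraries numbered 1 there were 11 in NS and 2 in the interaction. Leaving out 1 library at a time gave 3509 to 5874 for wounding in Act mice, 0 to 4 between genotypes in 5dw, 0 to 7 in NS and 0 to 2 in the interaction. The cause of the changes at an unchanged filter was not tested.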
